A study of Mus musculus with 24 samples.

Results

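The genes described here are 33 immediate early and heat shock genes of the mouse. They comprise 26 genes listed as immediate early, most of which are switched on fast after a stimulus, and 7 genes for heat shock proteins. The 26 are the AP-1 subunits Fos, Fosb, Fosl1, Fosl2, Jun, Junb, Jund and Atf3, the Egr, Nr4a and Klf factors, the Ier genes, Myc, Gadd45b and the feedback genes Dusp1, Zfp36, Btg2 and Socs3. All were chosen by symbol. All 33 symbols matched a row among the 54418 genes of the count table, and all 33 were among the 19050 genes with enough counts to be tested.

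The expression of these genes was measured by RNA sequencing in 24 libraries of intestinal stromal cells, the cells that support the epithelium. All 8 groups came from C57Bl6 background mice of 8 to 12 weeks. All cells were selected as lacking the epithelial protein Epcam and the leukocyte protein CD45 at their surface. The groups were the 8 combinations of tissue (small intestine or colon), CD31 (an endothelial surface protein, positive or negative) and a GFP transgene that reports Rspo3, the gene for the secreted Wnt enhancer R-spondin 3 (positive or negative), with 3 libraries each. The labels give neither the make of the transgene nor the animals behind each library, so p-values reflect the spread from library to library, which may be technical.

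Typical immediate early genes need no new protein synthesis to be transcribed: serum response factor, its ternary complex partners and CREB sit at their promoters, and growth factor, calcium and MAP kinase signals switch them on. Many of their products are transcription factors or feedback inhibitors, and their short-lived mRNAs decay fast. Heat shock genes are switched on by heat shock factor 1 when proteins misfold, and encode chaperones. Both sets are also known to be switched on while tissue is digested and cells are separated. The labels give no digestion time, temperature or time to lysis, and each group was its own cell fraction, so handling and group cannot be told apart in any comparison below.

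Levels are given in CPM, a depth-scaled count that uses TMM factors. They are given library by library, in the order of the deposited columns, which carry no replicate number. Changes are log2 fold changes ± SE from edgeR's quasi-likelihood test over all libraries, with p-values adjusted by Benjamini-Hochberg over the 19050 genes; a gene passed at an adjusted p under 0.05. Pecam1, which encodes CD31, averaged 10.3 to 25.3 CPM in the CD31- groups and 421 to 1338 CPM in the CD31+ groups. Rspo3 averaged 14.1 to 20.3 CPM in the reporter-negative groups and 213 to 385 CPM in the reporter-positive groups, so the CD31 and Rspo3 labels held in every group. The summed level of 8 lymphatic endothelial markers was 31115 to 51132 CPM in the reporter-positive CD31+ groups and 2067 to 6150 CPM in the other CD31+ groups. Such a sum can rest on few of its markers. Total counts ran from 8462041 to 29214487 (median 17881736). In 2 libraries other cell types stood out. The third library of colonic CD31- Rspo3+ cells held 25391 CPM of 10 leukocyte markers, against 1039 and 1283 CPM in its group. The third library of colonic CD31+ Rspo3- cells held 9076 CPM of 7 fibroblast markers, against 1353 and 1779 CPM. Libraries did not mark strand, so reads of Jun and Junos, Junb and Prdx2, Fosl1 and Ccdc85b, Dusp1 and Ergic1, and Hspa1a and Gm20481 cannot be told apart where the genes overlap.

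Levels of the members ranged widely. Per length, averaged over the 24 libraries, Fos stood at 4846 TPM, Junb at 3927 TPM, Egr1 at 3377 TPM and Hspa1b at 3041 TPM, while Nr4a3 at 8.42 TPM and Egr3 at 4.22 TPM were lowest. The 33 genes together took 2.02% to 2.77% of all counts in small intestinal CD31- Rspo3- libraries, the lowest share of any group, and 7.80% to 8.44% in colonic CD31+ Rspo3- libraries, the highest. Between these lay 3.73% to 5.33% in colonic CD31+ Rspo3+ and 6.30% to 7.02% in small intestinal CD31+ Rspo3+ libraries. By group mean, 2 groups held nearly all the lowest levels of the members. How often each group was lowest or highest was not counted over all genes. Small intestinal CD31- Rspo3- cells were lowest for 19 members, including all 7 heat shock genes. Colonic CD31+ Rspo3+ cells were lowest for 13 members, all immediate early genes, including Fos, Jun, Egr1 and all 3 Nr4a genes. The highest means were spread over 4 groups: colonic CD31+ Rspo3- cells for 12 members, colonic CD31- Rspo3+ cells for 10, small intestinal CD31+ Rspo3+ cells for 7 and small intestinal CD31- Rspo3+ cells for Fos, Egr1, Ier2 and Nr4a1.

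**Figure D1:**
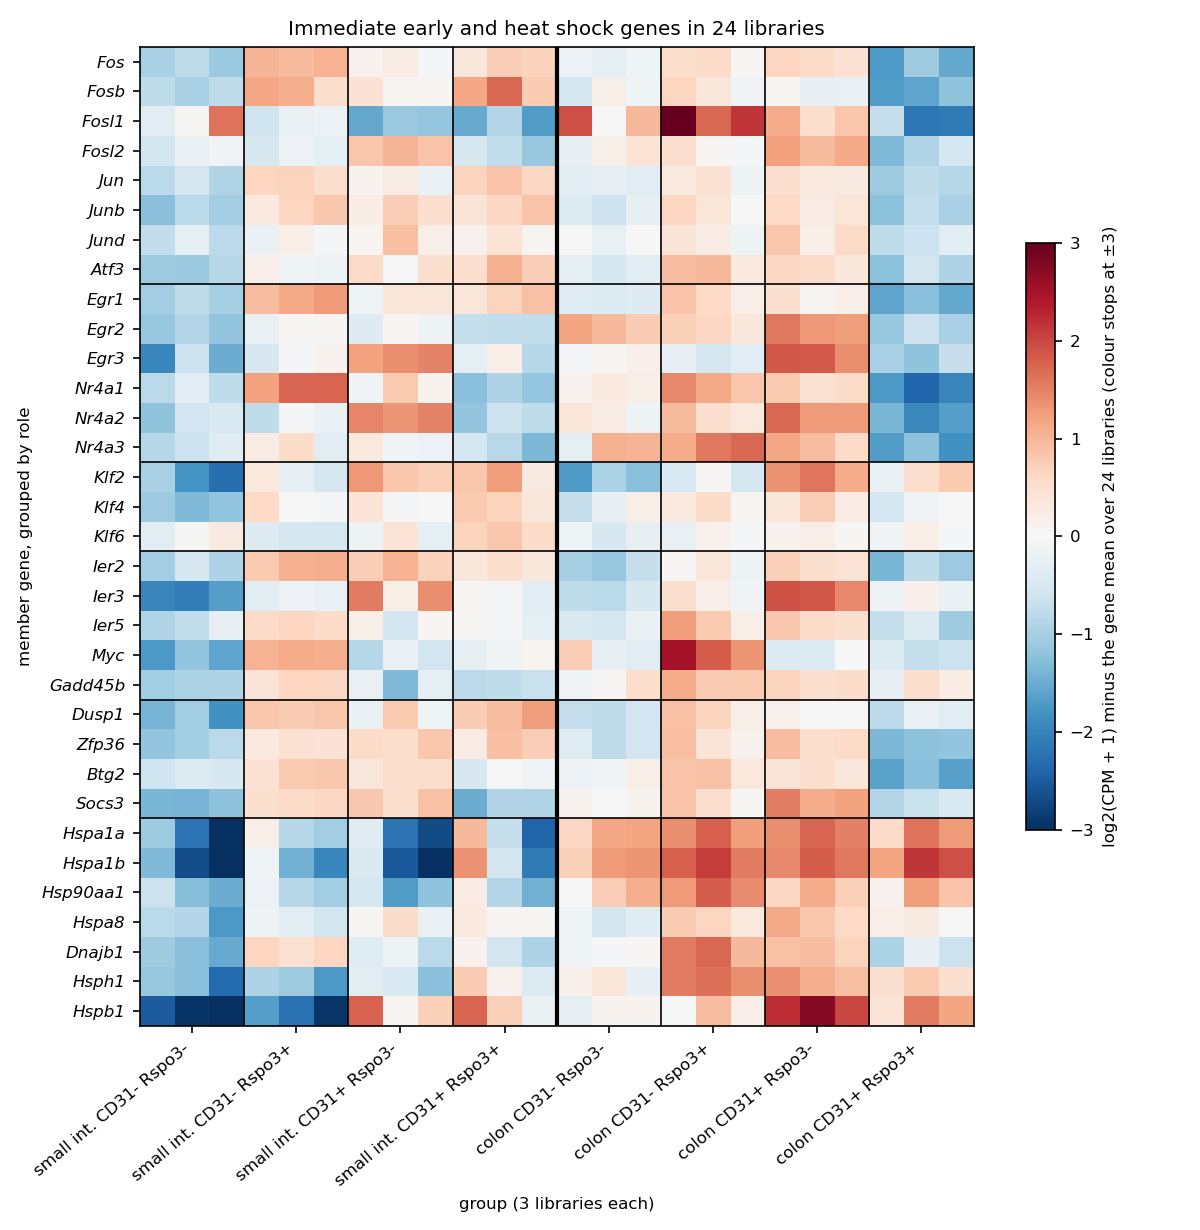
Level of each member gene (rows, grouped by role) in each of the 24 libraries (columns, 3 per group), as log2(CPM + 1) minus the mean of that gene over all libraries; red is above and blue below that mean, and the colour stops at a difference of 3. The first 3 columns (small intestinal CD31- Rspo3-) and the last 3 (colonic CD31+ Rspo3+) are blue for most immediate early genes, and the heat shock rows are bluer in the small intestine than in the colon.

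Rspo3+ and Rspo3- cells were first compared among CD31+ (endothelial) cells. In the colon, 24 of 33 members were lower in Rspo3+ cells and none was higher, where 13.6% of all genes tested were lower and 9.52% higher. The median change of the members was -1.37, beside -0.05 over all genes. In the small intestine 4 members were higher (Fosb, Jun, Klf6 and Dusp1) and 8 lower, where 9.23% of all genes were higher and 10.8% lower, and the median was -0.01 beside 0.00. Scaling by library totals alone gave 3 higher and 10 lower there, and a fit of the 2 groups alone gave 2 and 8. The 8 members that fell in the small intestine (Nr4a1, Nr4a2, Socs3, Fosl2, Ier3, Egr2, Egr3 and Btg2) also fell in the colon, where 24 of all 33 fell. Fosb and Jun rose in the small intestine and fell in the colon. These overlaps were not counted over all genes. In these bulk samples, fewer cells of a type and less RNA per cell cannot be told apart.

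Among AP-1 genes, whose products pair to bind DNA as dimers, all 8 fell in colonic CD31+ Rspo3+ cells. In the small intestine 2 of 8 rose, Fosl2 fell and 5 did not pass. Fos, the partner of Jun in the classic AP-1 dimer, was high in both small intestinal groups. Small intestinal Fos stood at 6434, 6905 and 5702 CPM in the Rspo3- libraries and at 7499, 9957 and 9507 CPM in the Rspo3+ libraries. Colonic Fos stood at 9250.1, 8620.1 and 7999.8 CPM in Rspo3- and at 1827, 2809 and 2052 CPM in Rspo3+ libraries. The groups did not overlap in either tissue, but lay in opposite order. Fos changed by -1.95 ± 0.21, adjusted p = 8.54e-07 in the colon, and its small intestinal difference of 0.50 ± 0.20 did not pass (adjusted p = 0.0909). Fosb, a Fos relative induced with it, did pass in both tissues. Small intestinal Fosb rose from 383, 301 and 295 CPM to 637, 936 and 481 CPM (1.07 ± 0.25, adjusted p = 0.00353). Colonic Fosb fell from 299, 242 and 245 CPM to 87.9, 94.7 and 122 CPM (-1.37 ± 0.25, adjusted p = 0.000376). The libraries of the groups did not overlap in either tissue. Jun, the partner of Fos in the dimer, followed the same order. Small intestinal Jun went from 3781, 4099 and 3079.8 CPM to 5629.9, 6398 and 5399 CPM (0.67 ± 0.18, adjusted p = 0.0117). Colonic Jun went from 4998, 4302 and 4275 CPM to 1666, 2079 and 1959 CPM (-1.25 ± 0.18, adjusted p = 3.73e-05).

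Fosl2, which encodes the Fos-related antigen Fra-2, was low in Rspo3+ cells of both tissues. Small intestinal Fosl2 stood at 105, 121 and 108 CPM in Rspo3- and 42.1, 35.4 and 26.3 CPM in Rspo3+ libraries (-1.68 ± 0.22, adjusted p = 1.07e-05). Colonic Fosl2 stood at 141, 115 and 132 CPM and 22.9, 31.3 and 40.9 CPM (-2.03 ± 0.22, adjusted p = 1.08e-06). Each Rspo3+ library lay below each Rspo3- library of its tissue. Atf3 encodes a stress-induced factor that can pair with Jun. Small intestinal Atf3 stood at 1944, 1307 and 1821 CPM and 1851, 2733 and 2188 CPM, groups that overlapped and did not pass (0.42 ± 0.21, adjusted p = 0.192). Colonic Atf3 fell from 2004, 1946 and 1669 CPM to 562, 888 and 686 CPM without overlap (-1.40 ± 0.22, adjusted p = 7.13e-05). Of the others, Junb, Jund and Fosl1 fell in the colon, with log2 changes of -1.37, -1.11 and -2.72, and none of these 3 passed in the small intestine.

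Of the zinc finger and nuclear receptor factors, 4 of 6 fell in small intestinal and all 6 in colonic CD31+ Rspo3+ cells. Egr1, a zinc finger factor of the growth factor response, did not pass in the small intestine. Small intestinal Egr1 stood at 5938, 8368 and 8321 CPM in Rspo3- and 8389, 10272 and 11947 CPM in Rspo3+ libraries, higher without overlap but not past the threshold (0.44 ± 0.22, adjusted p = 0.173). Colonic Egr1 fell from 9137, 6915 and 7521 CPM to 2181, 2739 and 2246 CPM (-1.72 ± 0.22, adjusted p = 7.94e-06). Egr2 is its relative. Small intestinal Egr2 was at 68.3, 93.9 and 80.8 CPM and 54.1, 53.8 and 53.1 CPM (-0.59 ± 0.16, adjusted p = 0.0122). Colonic Egr2 was at 269.8, 224 and 216 CPM and 40.6, 58.4 and 45.3 CPM (-2.30 ± 0.17, adjusted p = 9.37e-09), the smallest adjusted p of any member in the colon. Egr3 fell in both, with log2 changes of -1.76 in the small intestine and -2.99 in the colon.

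The Nr4a genes encode orphan nuclear receptors whose activity follows their abundance. Small intestinal Nr4a1 was at 782, 1431 and 883 CPM in the Rspo3- and 347, 436 and 368 CPM in the Rspo3+ libraries (-1.43 ± 0.24, adjusted p = 0.000178). Colonic Nr4a1 was at 1412, 1137 and 1210.1 CPM and 251, 157 and 209 CPM (-2.61 ± 0.25, adjusted p = 2.12e-07). Rspo3+ libraries were the lower ones throughout. Small intestinal Nr4a2 was at 133, 119.5 and 135 CPM and 20.4, 30.1 and 27.6 CPM (-2.31 ± 0.25, adjusted p = 9.12e-07). Colonic Nr4a2 was at 158, 116 and 117 CPM and 17.8, 11.7 and 14.5 CPM (-3.15 ± 0.26, adjusted p = 2.88e-08), the largest change of a member in this comparison. Nr4a3 fell in the colon (-2.77 ± 0.38, adjusted p = 1.51e-05) and did not pass in the small intestine (-0.99 ± 0.36, adjusted p = 0.0558).

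Klf2 and Klf4, zinc finger factors known to be induced by flow in endothelium, fell in the colon, and their relative Klf6 rose in the small intestine. Small intestinal Klf2 stood at 1767, 1263 and 1181 CPM in Rspo3- and 1285, 1711 and 863 CPM in Rspo3+ libraries, which overlapped (-0.13 ± 0.33, adjusted p = 0.851). Colonic Klf2 stood at 1835, 2198 and 1561 CPM and 627, 1014 and 1245 CPM (-0.95 ± 0.34, adjusted p = 0.0466). For Klf4 the small intestinal libraries read 267, 198 and 199 CPM and 348, 321 and 254 CPM, overlapping (0.48 ± 0.23, adjusted p = 0.163). The highest small intestinal Klf4 library was a Rspo3+ one. Colonic Klf4 read 261, 337 and 239 CPM and 139, 187 and 199 CPM (-0.67 ± 0.23, adjusted p = 0.0393). The colonic calls of Klf2 and Klf4 were near the threshold, and 6 of 13 alternatives lost each. Small intestinal Klf6 rose from 513, 751 and 471 CPM to 895, 987 and 830.0 CPM (0.64 ± 0.18, adjusted p = 0.0129). Colonic Klf6 was at 619.8, 650.0 and 585 CPM and 523, 649.5 and 541 CPM, which overlapped (-0.11 ± 0.18, adjusted p = 0.704).

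Of the feedback genes, Socs3, an inhibitor of cytokine receptor signaling, fell in both tissues. Small intestinal Socs3 was at 1785, 1429.8 and 1860.1 CPM in Rspo3- and 362, 544 and 544 CPM in Rspo3+ libraries (-1.81 ± 0.21, adjusted p = 1.94e-06). Colonic Socs3 was at 2960.5, 2206 and 2359.8 CPM and 558, 643 and 742 CPM (-1.95 ± 0.21, adjusted p = 7.5e-07). No Rspo3+ library reached a Rspo3- library of its tissue. Btg2, an antiproliferative gene, changed by -0.66 in the small intestine and by -1.90 in the colon, where its libraries went from 1816, 1945 and 1740.0 CPM to 453, 575 and 448 CPM. Zfp36 encodes tristetraprolin, which speeds the decay of AU-rich mRNAs, and fell in the colon (-1.95 ± 0.22, adjusted p = 1.56e-06) without passing in the small intestine (0.01 ± 0.21, adjusted p = 0.987). Dusp1, a phosphatase of MAP kinases, was called higher in the small intestine (0.77 ± 0.26, adjusted p = 0.0423), but its groups overlapped at 2569, 5088 and 2719.5 CPM and 5029, 5639 and 7066 CPM, and 8 of 13 alternatives lost the call. Ier2, Ier3 and Ier5 fell in the colon, with log2 changes of -1.60, -1.81 and -1.34, whereas Myc and Gadd45b did not pass in either tissue.

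The difference between the tissues was itself tested. In CD31+ cells, 12 of 33 members had a Rspo3 change that was lower in the colon than in the small intestine and none a higher one, where 1.29% of all genes tested were lower and 0.64% higher. The median difference was -1.23 beside -0.02 over all genes. The 12 were Fos, Fosb, Jun, Junb, Atf3, Egr1, Egr2, Ier2, Ier5, Zfp36, Btg2 and Dnajb1, led by Fos (-2.45 ± 0.29, adjusted p = 0.000118) and Jun (-1.92 ± 0.26, adjusted p = 0.000412). Without the third colonic Rspo3- library, the one with fibroblast markers, the colonic count was 23 and that of the tissue difference 11.

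Beside the colonic falls, the summed lymphatic markers went from 2067 to 2535 CPM in the Rspo3- libraries to 40570.3 to 51132 CPM in the Rspo3+ libraries, and 8 smooth muscle and pericyte markers from 1009 to 1631 CPM to 174 to 286 CPM. Small intestinal lymphatic markers went from 3288 to 6150 CPM to 31115 to 35060 CPM, and the smooth muscle markers from 791 to 1546 CPM to 122 to 254 CPM. Colonic pan-endothelial markers went from 5204 to 7019 CPM to 3813 to 4275 CPM, and enteric glia markers from 16.2 to 38.6 CPM to 6.91 to 7.93 CPM. No lymphatic marker was at 0 in all libraries of any of these groups. The part of cell makeup in the changes was not tested.

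Among CD31- cells, which include fibroblasts and other non-endothelial stroma, the Rspo3 comparison went the other way. In the small intestine 22 of 33 members were higher in Rspo3+ cells and Klf6 alone was lower, where 16.1% of all genes tested were higher and 14.3% lower. The median change was 1.39 beside 0.11 over all genes. In the colon 14 members were higher and none lower, where 4.8% of all genes were higher and 4.34% lower, with a median of 0.78 beside 0.00. The colonic count moved with the setting: it was 9 in a fit of the 2 groups alone, 9 without the first Rspo3+ library, 17 without the third Rspo3+ library, the one with leukocyte markers, and 8 (7 higher and 1 lower) by limma-trend on log2(TPM + 1). In both tissues 13 members rose. Of the 24 members that fell in colonic CD31+ cells, 19 rose in small intestinal CD31- cells, where 22 of all 33 members rose. These joint patterns were not counted over all genes. The comparisons share no library but come from the same fit, and whether they share animals is not given.

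**Figure D2:**
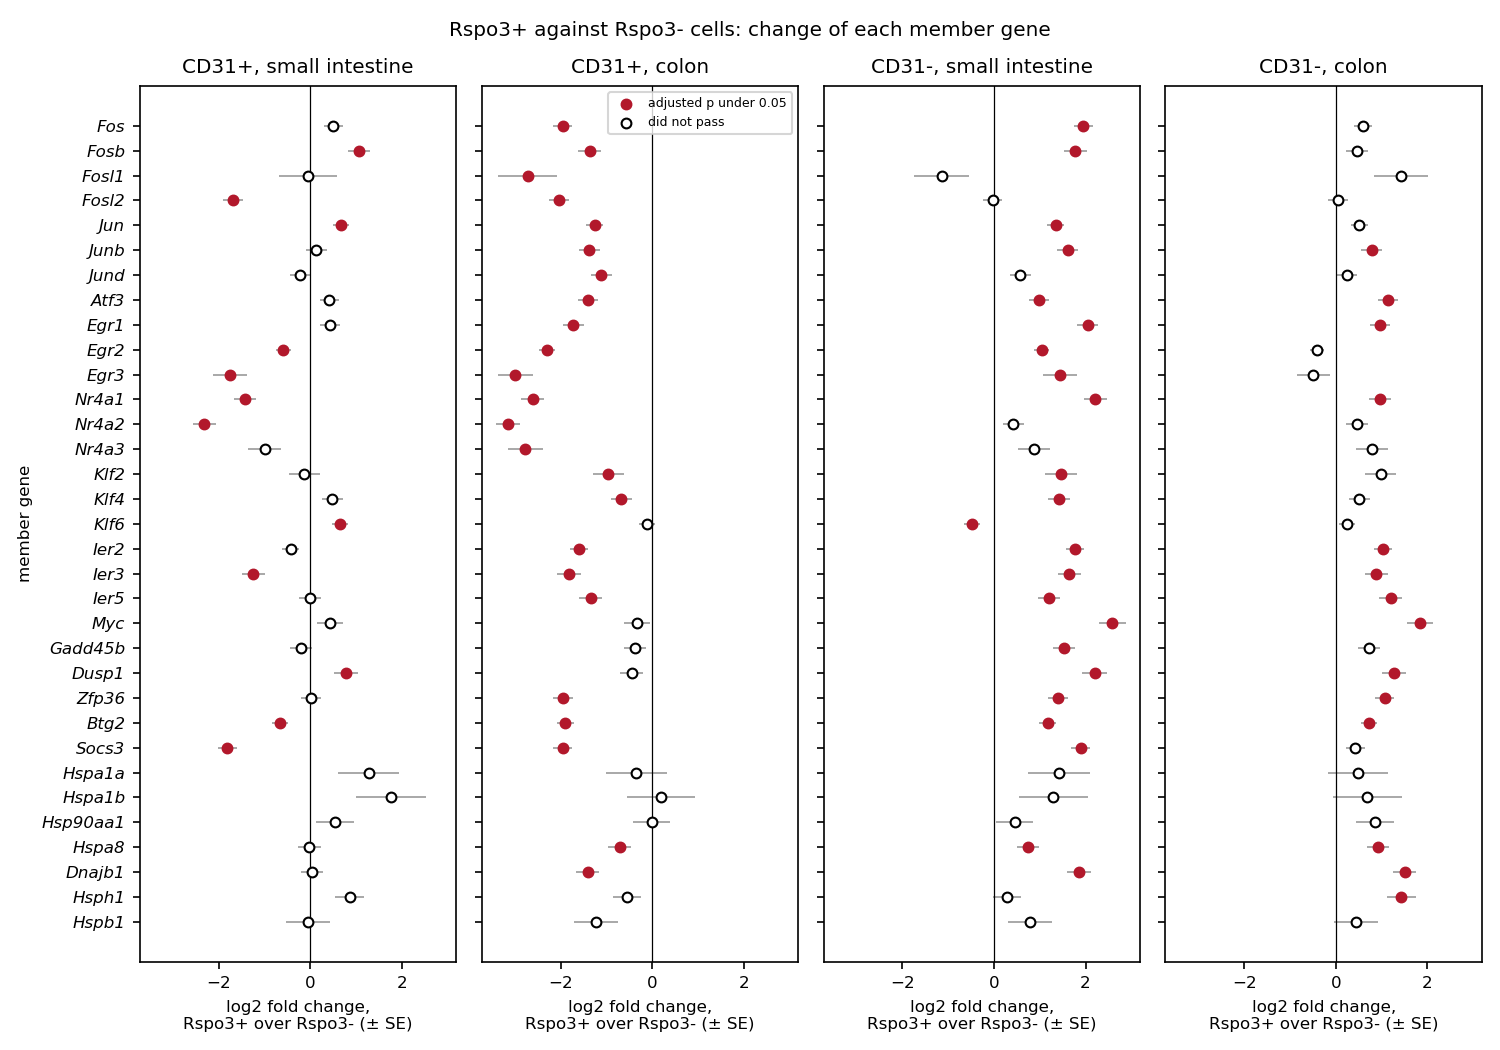
Log2 fold change of Rspo3+ over Rspo3- cells (x axis, bars ± SE) for each member gene (y axis) in the 4 combinations of CD31 and tissue; filled points passed an adjusted p under 0.05 (edgeR) and open points did not. In colonic CD31+ cells 24 filled points lie left of 0, and in small intestinal CD31- cells 22 lie right of 0 and 1 left. In small intestinal CD31+ cells 4 lie right of 0 and 8 left, and in colonic CD31- cells 14 lie right of 0.

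Of the AP-1 genes, 5 of 8 rose in small intestinal and 2 of 8 (Atf3 and Junb) in colonic CD31- Rspo3+ cells. Small intestinal Fos rose from 3003, 3485 and 2724 CPM to 11934, 11481 and 12132 CPM, with no overlap (1.95 ± 0.21, adjusted p = 1.26e-06). Colonic Fos was at 5211, 4869 and 5442 CPM and 8567, 8769.9 and 6048 CPM, also without overlap, but did not pass (0.59 ± 0.20, adjusted p = 0.0751). The tissues differed in this change of Fos (-1.36 ± 0.29, adjusted p = 0.00558). Small intestinal Jun rose from 1996, 2473 and 1893 CPM to 5474, 5611 and 5103 CPM (1.35 ± 0.18, adjusted p = 1.82e-05). Colonic Jun was at 2805, 2953 and 2829 CPM and 4323, 4763 and 3150.5 CPM and did not pass (0.51 ± 0.18, adjusted p = 0.0864). Atf3 had the smallest adjusted p of the AP-1 genes in the colon. Small intestinal Atf3 went from 611, 608 and 720.0 CPM to 1455, 1201 and 1173 CPM (0.98 ± 0.22, adjusted p = 0.00164). Colonic Atf3 went from 1069, 909 and 1044 CPM to 2495, 2579 and 1612 CPM (1.15 ± 0.22, adjusted p = 0.00191). Fosl1 and Fosl2 did not pass in either tissue.

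The factor genes Egr1 and Nr4a1 rose in both tissues. Small intestinal Egr1 went from 3159.6, 3842 and 3273 CPM to 12417, 14184 and 15833 CPM (2.05 ± 0.22, adjusted p = 1.44e-06). Colonic Egr1 went from 5063, 4914 and 4989 CPM to 11697, 9909 and 7502 CPM (0.96 ± 0.22, adjusted p = 0.00746). No library of one group reached the other in either tissue. Small intestinal Nr4a1 went from 469, 650.4 and 488 CPM to 1907, 2780.2 and 2786 CPM (2.22 ± 0.25, adjusted p = 1.72e-06). Colonic Nr4a1 went from 892, 1016 and 931 CPM to 2257, 1804 and 1474 CPM (0.96 ± 0.24, adjusted p = 0.0136). Nr4a1, Btg2 and Ier3 passed in all 4 Rspo3 comparisons, lower in CD31+ and higher in CD31- cells of both tissues. Egr2 split by tissue. Small intestinal Egr2 rose from 40.1, 48.6 and 38.8 CPM to 77.2, 92.2 and 92.7 CPM (1.04 ± 0.16, adjusted p = 7.65e-05). Colonic Egr2 was at 207, 176 and 152 CPM and 149, 139 and 113 CPM, lower without passing (-0.41 ± 0.16, adjusted p = 0.122), and the tissues differed (-1.45 ± 0.23, adjusted p = 0.000536). Nr4a2 overlapped in both tissues: small intestinal libraries read 20.1, 31.4 and 34.3 CPM and 27.7, 46.2 and 41.2 CPM, and colonic ones 61.2, 55.3 and 42.7 CPM and 93.1, 66.3 and 59.3 CPM.

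Klf2 and Klf4 rose in the small intestine. Small intestinal Klf2 went from 363, 207 and 149.9 CPM to 893, 586 and 508 CPM (1.46 ± 0.34, adjusted p = 0.00267). Colonic Klf2 was at 220.2, 371 and 302 CPM and 521, 737 and 499 CPM, higher in each library without passing (0.98 ± 0.34, adjusted p = 0.0777). For Klf4 the small intestinal rise was from 94.2, 79.5 and 88.3 CPM to 305, 199 and 196 CPM (1.42 ± 0.23, adjusted p = 0.000124). Its colonic groups overlapped, at 125, 169 and 232 CPM and 245, 295 and 212 CPM (0.52 ± 0.23, adjusted p = 0.178). Klf6 was the member that fell in the small intestine, from 457, 578 and 685 CPM to 436, 399.6 and 392 CPM (-0.49 ± 0.18, adjusted p = 0.0432), a call that 6 of 13 alternatives lost. Colonic Klf6 overlapped, at 520.4, 409 and 474 CPM and 487, 615 and 556 CPM.

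All 5 of the other immediate early genes rose in the small intestine, and all but Gadd45b in the colon. Myc, the growth and metabolism factor, had the largest change of the members in each tissue. Small intestinal Myc went from 35.9, 52.3 and 39.8 CPM to 249.5, 262 and 257 CPM (2.59 ± 0.29, adjusted p = 2.24e-06). Colonic Myc went from 201, 101 and 97.1 CPM to 690.3, 431 and 303 CPM (1.83 ± 0.28, adjusted p = 0.000365), with its first library highest in each colonic group. Ier2, a nuclear protein gene, showed no overlap. Small intestinal Ier2 went from 598, 865 and 641 CPM to 2099, 2535 and 2566 CPM (1.78 ± 0.20, adjusted p = 2.14e-06), and colonic Ier2 from 601, 553 and 747 CPM to 1240.4, 1554 and 1092 CPM (1.03 ± 0.20, adjusted p = 0.00207). Ier3, a survival gene, rose by 1.65 ± 0.26 and 0.88 ± 0.26, and Ier5 by 1.20 ± 0.24 and 1.20 ± 0.24. Gadd45b, a stress gene upstream of MAP kinases, rose in the small intestine from 288, 309 and 312 CPM to 776, 927 and 915 CPM (1.52 ± 0.24, adjusted p = 9.48e-05). Colonic Gadd45b was at 543, 613 and 861 CPM and 1288, 1008 and 1025 CPM, which did not pass (0.72 ± 0.24, adjusted p = 0.0676).

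All 4 feedback genes rose in the small intestine and all but Socs3 in the colon. Small intestinal Socs3 went from 396, 385 and 436 CPM to 1422, 1515 and 1580.0 CPM (1.89 ± 0.21, adjusted p = 1.47e-06). Colonic Socs3 overlapped at 1101, 1007 and 1093 CPM and 1835, 1439 and 1038 CPM (0.43 ± 0.20, adjusted p = 0.202), and the tissues differed (-1.46 ± 0.28, adjusted p = 0.00305). Btg2 showed a rise in each tissue. Small intestinal Btg2 went from 907, 1033 and 993 CPM to 1858, 2363 and 2409 CPM (1.18 ± 0.18, adjusted p = 6.47e-05), and colonic Btg2 from 1226, 1311 and 1571 CPM to 2506, 2548 and 1722 CPM (0.72 ± 0.18, adjusted p = 0.0149). Dusp1 rose by 2.20 ± 0.27 and 1.27 ± 0.26, and Zfp36 by 1.39 ± 0.22 and 1.07 ± 0.21, in the small intestine and colon.

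In CD31- cells the Rspo3 change was lower in the colon than in the small intestine for 8 members and higher for none, where 3.48% of all genes tested were lower and 4.91% higher. These were Fos, Fosb, Jun, Egr1, Egr2, Egr3, Nr4a1 and Socs3. The median difference was -0.61 beside -0.12 over all genes. This count moved with the libraries: it was 3 without the third small intestinal Rspo3-, the second small intestinal Rspo3+, the second colonic Rspo3- or the third colonic Rspo3+ library, 4 without the third small intestinal Rspo3+ or the second colonic Rspo3+ library, and 5 without the third colonic Rspo3- library. Limma-trend on log2(TPM + 1) gave 15, all lower. DESeq2 gave 3 higher and 8 lower, DESeq2 size factors in edgeR 1 and 6, library totals 1 and 8, limma voom 1 and 8, and a fit without the filter on low counts 1 and 7.

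Several measures of the libraries moved with these groups. Small intestinal CD31- Rspo3- libraries, where 19 members were lowest, held 5546 to 9204 CPM of 9 epithelial markers, against 59.5 to 205 CPM in the Rspo3+ libraries, and 2.67% to 4.82% of their counts came from mitochondrial genes, against at most 1.97% in all other groups. Fibroblast markers summed to 15557 to 21517 CPM there and to 92402 to 104491 CPM in the Rspo3+ libraries. In the colon the epithelial markers were at 1678 to 6186 CPM in Rspo3- and 55.7 to 2342 CPM in Rspo3+ libraries, and fibroblast markers at 26981 to 32236 CPM and 34979 to 64105 CPM. Colonic smooth muscle and pericyte markers went from 3124 to 4432 CPM in Rspo3- to 628 to 904 CPM in Rspo3+ libraries, and overlapped in the small intestine at 1680.3 to 2429 CPM and 1549.7 to 1929 CPM. Markers of enteric glia went from 101 to 222 CPM to 5.84 to 19.3 CPM in the colon and from 84.2 to 93.3 CPM to 4.36 to 10.5 CPM in the small intestine. Small intestinal lymphatic markers went from 86.9 to 139 CPM to 398 to 840 CPM. Markers of several other cell types were thus at different levels in Rspo3- and Rspo3+ libraries. No epithelial, fibroblast, smooth muscle or enteric glia marker was at 0 in all libraries of any of these groups. Their part in the changes was not tested.

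The difference between CD31+ and CD31- cells in the Rspo3 change passed for most members. In the colon the change was lower in CD31+ than in CD31- cells for 28 of 33 members and higher for none, where 10.4% of all genes tested were lower and 6.61% higher. The median was -2.15 beside -0.04 over all genes, and Nr4a2 (-3.61 ± 0.34, adjusted p = 4.48e-07), Nr4a1 (-3.57 ± 0.34, adjusted p = 4.57e-07) and Btg2 (-2.62 ± 0.26, adjusted p = 5.87e-07) led. In the small intestine 21 were lower and Klf6 was higher (1.13 ± 0.25, adjusted p = 0.00233), where 13.1% of all genes were lower and 11.1% higher, with a median of -1.45 beside -0.07. Socs3 (-3.70 ± 0.29, adjusted p = 2.37e-08), Nr4a1 (-3.64 ± 0.34, adjusted p = 2.17e-07) and Nr4a2 (-2.74 ± 0.34, adjusted p = 7.15e-06) led there. The colonic count was 28 without the third CD31- Rspo3+ library and 27 without the third CD31+ Rspo3- library.

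Promoter sequence was read for the 26 of 33 members present in the RefSeq promoter table (GRCm38.p6), as the 250 bases before the start site. Fos and Nr4a1 are shown because Nr4a1 passed in all 4 Rspo3 comparisons and Fos had the smallest adjusted p of any member in CD31- small intestinal cells. The capitals mark TGACG, the core of the cyclic AMP response element bound by CREB, or CGTCA, the same letters on the other strand. The Fos window lies at chr12:85473640-85473889 on the plus strand and the Nr4a1 window at chr15:101266596-101266845 on the plus strand.
Fos: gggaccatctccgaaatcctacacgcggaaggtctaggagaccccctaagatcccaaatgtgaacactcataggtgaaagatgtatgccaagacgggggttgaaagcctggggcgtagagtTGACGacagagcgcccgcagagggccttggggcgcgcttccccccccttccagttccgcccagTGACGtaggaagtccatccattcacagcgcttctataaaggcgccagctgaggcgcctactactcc
Nr4a1: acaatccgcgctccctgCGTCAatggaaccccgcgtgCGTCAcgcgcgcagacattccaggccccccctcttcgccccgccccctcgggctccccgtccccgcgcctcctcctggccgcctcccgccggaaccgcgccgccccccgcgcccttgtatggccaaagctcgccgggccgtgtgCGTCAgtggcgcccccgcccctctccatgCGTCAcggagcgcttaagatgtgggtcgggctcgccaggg
Fos held 2 such sites and Nr4a1 held 4. On either strand, TGACG was found in the windows of 12 of 21 immediate early members and 2 of 5 heat shock members, and for 19.8% of all 27025 genes of the table. Members and all genes were counted alike, as genes with a match in any of their promoters. The full element TGACGTCA, which contains TGACG, was found in Btg2 and Dusp1 and for 1.77% of all genes. The CArG box bound by serum response factor was found in Egr2 and Zfp36 and for 1.62% of all genes, and the AP-1 site TGANTCA in no member and for 7.82% of all genes. These matches describe letters in the windows, and a site beyond the 250 bases would be missed. The motifs were chosen after the data were seen.

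The 7 heat shock genes were counted in the same 4 Rspo3 comparisons. Over all genes tested, the shares higher and lower in Rspo3+ cells were 9.23% and 10.8% in small intestinal CD31+ cells. They were 9.52% and 13.6% in colonic CD31+, 16.1% and 14.3% in small intestinal CD31- and 4.8% and 4.34% in colonic CD31- cells. Between Rspo3+ and Rspo3- cells none passed in small intestinal CD31+ cells, Hspa8 and Dnajb1 fell in colonic CD31+ cells, Hspa8 and Dnajb1 rose in small intestinal CD31- cells, and Hspa8, Dnajb1 and Hsph1 rose in colonic CD31- cells. For the 0 in small intestinal CD31+ cells (edgeR), 2 of the 7 had an unadjusted p under 0.05, both higher, and DESeq2 called 1, limma voom and limma-trend 0. Hspa1a, Hspa1b, Hsp90aa1 and Hspb1 were the only members that passed in none of these 4 comparisons, in a fit whose SE holds the wide spread between libraries of a group described below.

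Hspa1a and Hspa1b encode the stress-induced Hsp70 and are near-identical neighbours, so that the split of reads between them is uncertain. Their promoters, and that of Hspb1, are shown because heat shock factor is the known switch of these genes, whose levels differed between tissues. Whether heat shock factor had a part in those differences was not tested. The windows are the 250 bases before the start site in RefSeq (GRCm38.p6), at chr17:34972157-34972406 on the minus strand for Hspa1a, chr17:34959239-34959488 on the minus strand for Hspa1b and chr5:135887669-135887918 on the plus strand for Hspb1. Capitals mark GAANNTTC, a pair of facing units of the heat shock element.
Hspa1a: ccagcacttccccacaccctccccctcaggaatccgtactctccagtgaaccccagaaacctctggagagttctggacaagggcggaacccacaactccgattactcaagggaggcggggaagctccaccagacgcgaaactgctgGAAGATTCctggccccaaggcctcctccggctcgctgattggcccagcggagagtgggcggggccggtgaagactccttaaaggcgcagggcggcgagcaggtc
Hspa1b: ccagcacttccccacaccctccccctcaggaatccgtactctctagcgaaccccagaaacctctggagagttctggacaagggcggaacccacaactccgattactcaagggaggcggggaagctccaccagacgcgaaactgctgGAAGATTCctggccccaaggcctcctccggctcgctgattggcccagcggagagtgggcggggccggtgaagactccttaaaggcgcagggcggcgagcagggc
Hspb1: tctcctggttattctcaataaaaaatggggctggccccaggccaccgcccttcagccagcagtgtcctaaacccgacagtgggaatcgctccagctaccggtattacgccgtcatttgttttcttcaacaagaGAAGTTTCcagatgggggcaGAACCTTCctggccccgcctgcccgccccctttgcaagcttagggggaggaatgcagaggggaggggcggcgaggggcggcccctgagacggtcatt
The Hspa1a and Hspa1b windows were the same at 247 of 250 bases, each with 1 pair, and Hspb1 had 2. GAANNTTC or TTCNNGAA was found in 4 of 5 heat shock members with a promoter (these 3 and Hsph1), in 3 of 21 immediate early members (Egr2, Fosl2 and Jun) and for 14.5% of all genes. Dnajb1 was the heat shock member with a promoter but without the pair. The heat shock element of 3 alternating units, which contains that pair, was found in no member and for 0.514% of all genes.

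Small intestinal Hspa1a stood at 1493, 682 and 358 CPM for CD31- Rspo3-, 3572, 1729.5 and 1521 CPM for CD31- Rspo3+, 2441, 675 and 489.8 CPM for CD31+ Rspo3- and 6196, 1944 and 591 CPM for CD31+ Rspo3+ libraries. Colonic Hspa1a stood, in the same order, at 4874, 6994 and 7119 CPM, 8245, 10831 and 7479 CPM, 8334, 10634 and 9014 CPM and 4695, 9688 and 7669 CPM. In each of the 4 small intestinal groups the first library was the highest and the third the lowest. Small intestinal Hspa1b, in the same order, stood at 1260.2, 504 and 207 CPM, 2879, 1168 and 809 CPM, 2312, 552 and 368 CPM and 8121, 2149.5 and 727 CPM. Colonic Hspa1b stood at 5229, 7736 and 7939.6 CPM, 10953, 13440.4 and 9316 CPM, 8548, 11238 and 9446 CPM and 7242, 14130.2 and 12046 CPM. The first library of small intestinal CD31+ Rspo3+ cells reached colonic levels of Hspa1b, and the third was 11.2-fold below it. Hspa1a was higher in the colon in CD31+ Rspo3- (2.96 ± 0.71, adjusted p = 0.0191) and CD31- Rspo3- cells (2.91 ± 0.71, adjusted p = 0.007). It did not pass in CD31- Rspo3+ (1.96 ± 0.69, adjusted p = 0.0971) or CD31+ Rspo3+ cells (1.34 ± 0.67, adjusted p = 0.3). Hspa1b passed in the same 2 fractions (3.18 ± 0.81, adjusted p = 0.0277, and 3.41 ± 0.82, adjusted p = 0.006) and in CD31- Rspo3+ cells (2.80 ± 0.80, adjusted p = 0.0383). With the 2 genes summed, an alternative chosen after the data were seen, the colon was higher in CD31+ Rspo3- (3.06 ± 0.76, adjusted p = 0.023) and CD31- Rspo3- cells (3.15 ± 0.76, adjusted p = 0.00639), and the difference did not pass in CD31- Rspo3+ cells (2.37 ± 0.74, adjusted p = 0.0585).

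Hsp90aa1, the stress-induced cytosolic Hsp90, had the same library order in part. Small intestinal Hsp90aa1 was at 443, 286 and 248 CPM for CD31- Rspo3-, 613, 383 and 341 CPM for CD31- Rspo3+, 482, 217 and 303 CPM for CD31+ Rspo3- and 823, 376 and 257 CPM for CD31+ Rspo3+ libraries. Colonic Hsp90aa1 was at 704, 1156 and 1480.2 CPM, 1694, 2478 and 1875 CPM, 1069.8, 1516 and 1138 CPM and 767, 1663 and 1267 CPM in that order of groups. It was higher in the colon in CD31- Rspo3+ (2.18 ± 0.42, adjusted p = 0.00286), CD31- Rspo3- (1.77 ± 0.42, adjusted p = 0.00508) and CD31+ Rspo3- cells (1.89 ± 0.42, adjusted p = 0.011). Hsph1 encodes an Hsp110 that recharges Hsp70. Small intestinal Hsph1 was at 82.4, 75.4 and 35.6 CPM, 94.7, 86.5 and 54.5 CPM, 146, 131 and 75.5 CPM and 307, 199 and 137 CPM, groups as before. Colonic Hsph1 was at 201, 235 and 154 CPM, 534, 576 and 479 CPM, 470.1, 389 and 340.0 CPM and 253, 313 and 255 CPM. Its largest tissue difference was in CD31- Rspo3+ cells (2.75 ± 0.33, adjusted p = 4.36e-05), the smallest adjusted p of any member in that comparison. Hsph1 also rose with Rspo3 in colonic CD31- cells (1.43 ± 0.32, adjusted p = 0.0069).

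Hspb1 encodes a small heat shock protein, Hsp27, and stood higher in CD31+ than in CD31- cells of the small intestine. Small intestinal Hspb1 was at 99.0, 72.4 and 42.2 CPM for CD31- Rspo3- and 178, 119 and 73.1 CPM for CD31- Rspo3+ libraries, against 1917, 591 and 920.5 CPM for CD31+ Rspo3- and 1903, 921 and 494 CPM for CD31+ Rspo3+ libraries. Colonic Hspb1 was at 468, 610.4 and 607 CPM, 568, 1077 and 648 CPM, 2617, 3752 and 2246 CPM and 749, 1652 and 1274 CPM in that order. Every small intestinal CD31+ library lay above every small intestinal CD31- library. Its group means spanned 40.3-fold, the widest range of the 33 genes.

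Hspa8, the constitutive Hsc70, and Dnajb1, its Hsp40 partner, were the heat shock genes that passed in 3 of the 4 Rspo3 comparisons. Small intestinal Hspa8 was at 1803, 1715 and 957 CPM for CD31- Rspo3-, 2834, 2493 and 2150.4 CPM for CD31- Rspo3+, 3238, 4615 and 2710.2 CPM for CD31+ Rspo3- and 3886, 3273 and 3277 CPM for CD31+ Rspo3+ libraries. Colonic Hspa8 was at 2893, 2167 and 2433 CPM, 5358, 4925 and 3927 CPM, 6954, 5503 and 4756 CPM and 3606, 3781 and 3142 CPM in that order. It rose with Rspo3 in CD31- cells of the colon (0.92 ± 0.25, adjusted p = 0.0217) and small intestine (0.74 ± 0.25, adjusted p = 0.0271) and fell in colonic CD31+ cells (-0.71 ± 0.25, adjusted p = 0.0423), and 7 of 13 alternatives lost each of these calls. Small intestinal Dnajb1 was at 300.1, 262 and 219 CPM, 977, 864 and 984 CPM, 489, 568 and 356 CPM and 688, 430.5 and 329.9 CPM. Colonic Dnajb1 was at 569, 603 and 641 CPM, 1841, 2088 and 1229.5 CPM, 1148, 1187 and 998 CPM and 325, 529.7 and 401 CPM. Dnajb1 rose with Rspo3 in CD31- cells of the small intestine (1.86 ± 0.26, adjusted p = 2.09e-05) and colon (1.51 ± 0.25, adjusted p = 0.000728) and fell in colonic CD31+ cells (-1.41 ± 0.25, adjusted p = 0.000341).

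Libraries of the same small intestinal group lay far apart for several heat shock genes. The median ratio of the highest to the lowest library was 1.80 to 3.20 over the 7 heat shock genes in the 4 small intestinal groups, against 1.24 to 1.40 over the 26 immediate early genes and 1.35 to 1.60 over all genes tested. In the colon it was 1.38 to 1.95 for the heat shock genes. A small constant was added to each CPM before the ratio was taken, which lowers the ratio most in genes of low level. For 5 of the 7 (Hspa1a, Hspa1b, Hsp90aa1, Hsph1 and Hspb1) the first library was the highest in all 4 small intestinal groups, as for 1 of the 26 immediate early genes (Klf4), 4 of 20 other heat shock factors and cytosolic chaperones (Hsp90ab1, Dnaja1, Dnajb4 and Bag3) and 4.15% of all genes tested. Whether the first columns share an animal, day or preparation is not given in the labels.

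**Figure D3:**
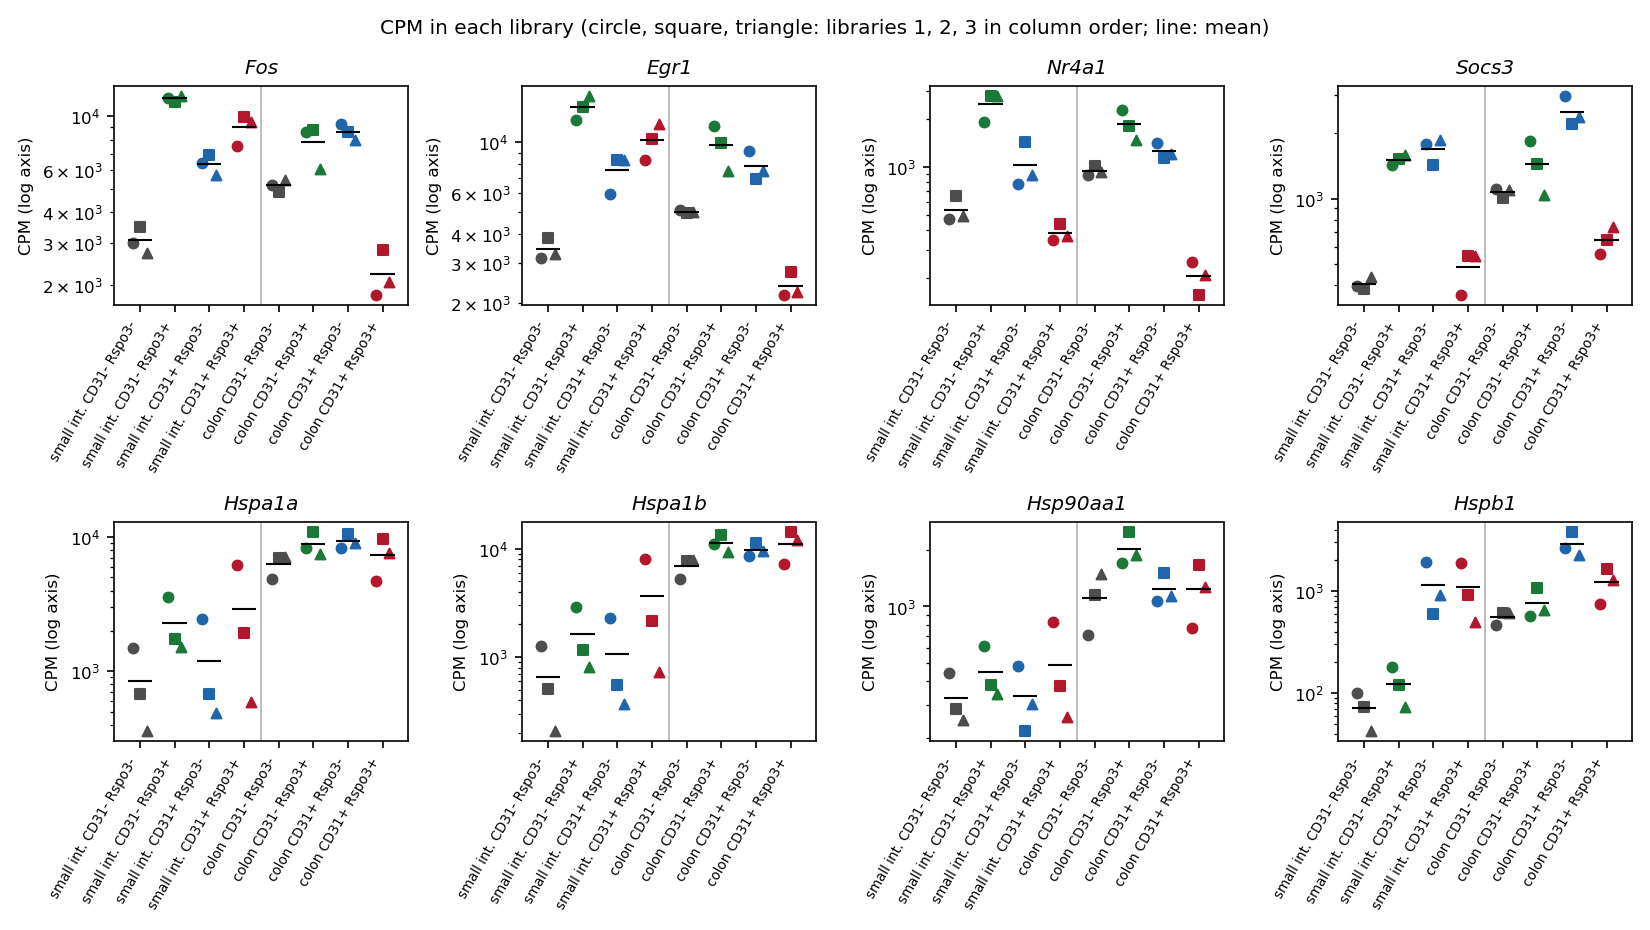
CPM (log axis) of 4 immediate early genes (Fos, Egr1, Nr4a1 and Socs3) and 4 heat shock genes (Hspa1a, Hspa1b, Hsp90aa1 and Hspb1) in each library of the 8 groups; circle, square and triangle are libraries 1, 2 and 3 in column order, the line is the mean of 3, and colour gives the combination of CD31 and Rspo3. In the small intestinal groups the circle is the highest point for all 4 heat shock genes, and the colonic CD31+ Rspo3+ group is lowest for Fos, Egr1 and Nr4a1.

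The comparisons of CD31+ with CD31- cells use the same libraries as the Rspo3 comparisons, so their counts are no independent result. Among Rspo3- cells most members were higher in CD31+ cells. In the small intestine 25 were higher and Fosl1 was lower, where 20.1% of all genes tested were higher and 21.6% lower, with a median of 1.02 beside -0.03 over all genes. In the colon 21 were higher and none lower, where 16.1% were higher and 16.4% lower, with a median of 0.70 beside -0.07. Ier3 led in both tissues. Small intestinal Ier3 was at 137, 126 and 169.6 CPM for CD31- and 1559.8, 599 and 1394 CPM for CD31+ libraries (3.04 ± 0.27, adjusted p = 4.48e-08). Colonic Ier3 was at 312, 306 and 381 CPM and 2002, 1944 and 1457 CPM (2.44 ± 0.27, adjusted p = 8.94e-07). The groups did not overlap. Socs3 (2.06 ± 0.21, adjusted p = 1.89e-07) and Nr4a2 (2.18 ± 0.25, adjusted p = 8.24e-07) followed in the small intestine, and Klf2 (2.65 ± 0.36, adjusted p = 1.13e-05) and Ier2 (1.48 ± 0.20, adjusted p = 1.17e-05) in the colon, where Ier2 was at 1982, 1697 and 1613 CPM for CD31+ libraries. Fosl1, the gene of Fra-1, was low in these small intestinal groups, at 7.3, 9.59 and 31.1 CPM for CD31- and 2.54, 3.74 and 3.62 CPM for CD31+ libraries (-2.28 ± 0.63, adjusted p = 0.00666). Its highest group mean was 59.5 CPM, in colonic CD31- Rspo3+ cells.

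Among Rspo3+ cells most calls were lower in CD31+ cells. In the colon 23 members were lower in CD31+ cells and none was higher, where 18.2% of all genes tested were lower and 14.9% higher, with a median of -1.15 beside -0.07 over all genes. Nr4a1 (-3.17 ± 0.26, adjusted p = 1.11e-08), Btg2 (-2.20 ± 0.19, adjusted p = 2.23e-08) and Nr4a2 (-2.31 ± 0.25, adjusted p = 4.8e-07) led. Small intestinal cells had 5 members higher and 10 lower, where 16.9% were higher and 19.6% lower, with a median of 0.04 (-0.08 by limma voom) beside -0.01 over all genes. Library totals gave 8 higher and 7 lower, and limma-trend on log2(TPM + 1) gave 6 and 6. Klf6 (1.14 ± 0.18, adjusted p = 3.31e-05), Hspb1 (3.16 ± 0.52, adjusted p = 5.75e-05) and Hsph1 (1.45 ± 0.32, adjusted p = 0.00117) led the rises. Nr4a1 (-2.70 ± 0.25, adjusted p = 4.19e-08), Socs3 (-1.64 ± 0.21, adjusted p = 2.15e-06) and Gadd45b (-1.30 ± 0.24, adjusted p = 0.00024) led the falls, with Gadd45b at 343, 351 and 372 CPM for CD31+ libraries.

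Colon and small intestine were compared within each fraction, again on the same libraries. In CD31+ Rspo3+ cells 14 members, all immediate early genes, were lower in the colon and Gadd45b alone was higher, where 3.52% of all genes tested were lower and 2.83% higher, and the median was -0.84 over the 26 immediate early genes and 0.35 over the 7 heat shock genes, beside 0.00 over all genes. Fosb (-2.75 ± 0.26, adjusted p = 2.68e-06), Fos (-2.01 ± 0.21, adjusted p = 8.12e-06) and Egr1 (-2.09 ± 0.22, adjusted p = 1.06e-05) led the falls. Gadd45b rose from 343, 351 and 372 CPM to 499, 864 and 695 CPM (0.95 ± 0.24, adjusted p = 0.0215). No heat shock gene passed there by edgeR, where 2 of the 7 had an unadjusted p under 0.05, both higher in the colon, and DESeq2 and limma voom each called 1.

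In the other fractions all members that passed were higher in the colon, apart from Ier2. In CD31+ Rspo3- cells 8 were higher and none lower, where 2.72% of all genes were higher and 1.71% lower, with 5 of 7 heat shock genes among them. Egr2 (1.55 ± 0.16, adjusted p = 2.75e-05), Hsph1 (1.77 ± 0.32, adjusted p = 0.00284) and Dnajb1 (1.24 ± 0.25, adjusted p = 0.00663) led. That count was 3 without the second and 4 without the third small intestinal library, 6 without the third colonic library and 5 in a fit of the 2 groups alone. In CD31- Rspo3+ cells 11 were higher and Ier2 was lower (-0.89 ± 0.20, adjusted p = 0.00776), where 3.62% were higher and 3.4% lower, with 6 of 7 heat shock genes among them. Hsph1, Hspb1 (2.63 ± 0.51, adjusted p = 0.00284) and Hsp90aa1 led. That count of 12 was 7 without the second and 6 without the third small intestinal library, 6 without the first colonic library, 11 without the third colonic library, and 6 (5 higher and 1 lower) by limma-trend on log2(TPM + 1). In CD31- Rspo3- cells 19 were higher and none lower, where 8.79% were higher and 8.81% lower, including all 7 heat shock genes. Egr2 (2.07 ± 0.17, adjusted p = 6.81e-08), Socs3 (1.39 ± 0.20, adjusted p = 6.81e-05) and Myc (1.64 ± 0.28, adjusted p = 0.000379) led, and the median was 0.75 over the 33 genes beside 0.10 over all genes.

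**Figure D4:**
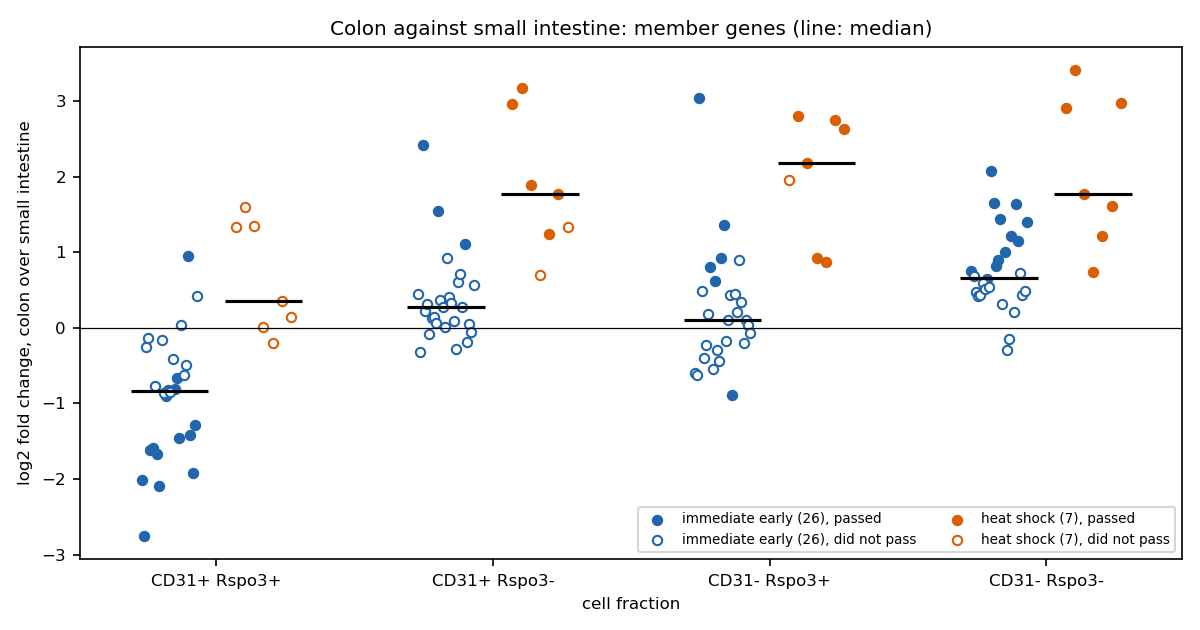
Log2 fold change of colon over small intestine (y axis) in the 4 cell fractions (x axis) for the 26 immediate early genes (blue) and the 7 heat shock genes (orange); filled points passed an adjusted p under 0.05 (edgeR), open points did not, and lines are medians. The heat shock median is 0.35 in CD31+ Rspo3+ cells and 1.77 to 2.18 in the other fractions, and the immediate early median is -0.84 in CD31+ Rspo3+ cells and above 0 in the others.

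Other genes of the same pathways were counted from lists. Over all genes tested, the shares higher and lower in Rspo3+ cells were 9.23% and 10.8% in small intestinal CD31+, 9.52% and 13.6% in colonic CD31+, 16.1% and 14.3% in small intestinal CD31- and 4.8% and 4.34% in colonic CD31- cells. Of 37 other rapid-response genes, small intestinal CD31+ cells had 7 higher and 7 lower in Rspo3+ cells, and colonic CD31+ cells 1 higher and 23 lower. Small intestinal CD31- cells had 23 higher and 3 lower, and colonic CD31- cells 13 higher and 2 lower. The direction of most calls was that of the members in each of the last 3. In colonic CD31+ cells Arc, a gene best known from neurons (-4.81 ± 0.42, adjusted p = 6.73e-08), and Sgk1, a serum- and glucocorticoid-induced kinase (-1.98 ± 0.19, adjusted p = 1.85e-07), fell, and the chemokine gene Ccl2 rose (1.63 ± 0.49, adjusted p = 0.0201). Ccl2 also rose in small intestinal CD31+ cells (3.05 ± 0.52, adjusted p = 0.000201), as did Ccn1, a matricellular target of YAP (1.25 ± 0.23, adjusted p = 0.000501). Gadd45g (-3.34 ± 0.28, adjusted p = 4.04e-08) and the cytokine gene Il6 (-4.64 ± 0.43, adjusted p = 1.4e-07) fell there. In CD31- cells Phlda1 (2.19 ± 0.23, adjusted p = 1.07e-06) and Arc (3.48 ± 0.39, adjusted p = 2.14e-06) rose in the small intestine and Nfkbiz, an inhibitor-like regulator of NF-kappaB (1.66 ± 0.28, adjusted p = 0.000644), in the colon, while the p53 target Gadd45a fell in both (-1.47 ± 0.23, adjusted p = 6.9e-05 and -1.12 ± 0.23, adjusted p = 0.00331).

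Of 20 other heat shock factors and cytosolic chaperones, Rspo3+ cells had 4 higher and 2 lower in small intestinal CD31+ cells, and 1 higher and 5 lower in colonic CD31+ cells. The CD31- counts were 9 higher and 0 lower in the small intestine and 6 higher and 0 lower in the colon. Bag3, a cochaperone of Hsp70 and a heat shock factor target, rose in both (1.98 ± 0.22, adjusted p = 1.46e-06 and 1.75 ± 0.21, adjusted p = 3.4e-05). Between tissues Bag3 was higher in the colon in CD31+ Rspo3- (1.40 ± 0.21, adjusted p = 0.000582), CD31- Rspo3+ (1.22 ± 0.21, adjusted p = 0.00109) and CD31- Rspo3- cells (1.45 ± 0.21, adjusted p = 6.94e-05). In colonic CD31+ cells Dnaja1, an Hsp40 gene, fell (-1.13 ± 0.17, adjusted p = 4.74e-05) and Hspa4l rose (1.17 ± 0.25, adjusted p = 0.00157). Of 14 mitochondrial and ER chaperones and genes of the unfolded protein response, Rspo3+ cells had 3 higher and 1 lower in small intestinal CD31+ cells, and 1 higher and 6 lower in colonic CD31+ cells. In CD31- cells the counts were 7 higher and 2 lower in the small intestine, and 10 higher and 0 lower in the colon.

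Genes of the pathways that switch the immediate early genes on were counted too. Of 19 genes of the serum response factor, CREB, MEF2 and MAP kinase pathways, Rspo3+ cells had 2 higher and 3 lower in small intestinal CD31+ cells, and 1 higher and 6 lower in colonic CD31+ cells. In CD31- cells the counts were 5 higher and 2 lower in the small intestine, and 0 higher and 0 lower in the colon. For the 0 in colonic CD31- cells (edgeR), 2 of the 19 genes had an unadjusted p under 0.05, both higher, and DESeq2 called 2, limma voom 0 and limma-trend 1. In small intestinal CD31+ cells the counts of these 19 genes were near the shares over all genes, 9.23% higher and 10.8% lower. Of 10 fluid-shear responsive endothelial genes, Rspo3+ cells had 2 higher and 3 lower in small intestinal CD31+ cells, and 2 higher and 4 lower in colonic ones. Of 12 MAP kinase phosphatases and other feedback genes, the counts were 2 higher and 1 lower in small intestinal CD31+, 0 higher and 5 lower in colonic CD31+, 3 higher and 5 lower in small intestinal CD31- and 3 higher and 2 lower in colonic CD31- cells. Of 7 oxidative stress genes they were, in the same order, 1 higher and 1 lower, 1 higher and 1 lower, 2 higher and 3 lower, and 2 higher and 1 lower.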

How the data were processed

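Libraries were made from total RNA (Qiagen RNeasy) with SMART-Seq v4 chemistry (full-length, unstranded), per the labels' protocols. Salmon 1.3.0, R 4.0.1 and mm10 are named in the submitters' processing notes; the annotation release is not given in the sources used here. Estimated counts, as deposited, were whole and needed no rounding. The second deposited table holds log2 values, taken as log2(TPM + 1) because each library sums to the TPM total once transformed back. Per the file headers, columns name tissue, CD31 and reporter but no replicate number, and 0 columns of other samples were found. Symbols came from GENCODE M21 (GRCm38), which named 54096 of 54418 gene IDs (99.4%); the remaining IDs held at most 0.068% of a library's counts. Promoters came from RefSeq (GRCm38.p6).

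Counts were tested with edgeR 4.0.16 (R 4.3.3): filterByExpr (minimum count 10, minimum total 15), TMM, quasi-likelihood F test, 1 mean per group over 24 libraries, no covariate, common biological coefficient of variation 0.429. Calls were made at a Benjamini-Hochberg adjusted p under 0.05 over 19050 genes. The test was checked on simulated data. With 3 libraries a group it misses many true changes, so a gene that did not pass may still have changed. Replicate pairs within a group correlated at 0.893 to 0.967 (log2 CPM) and differed beyond counting error (chi-square per degree of freedom of 27.2 or more over genes summing to 20 counts), so all were kept. Depth sets the precision of low genes such as Egr3 and Fosl1.

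The members, lists, tests and alternatives were chosen with earlier results of these data known. All 33 members may be named; Fos, Jun, Egr1, Atf3, Klf2, Klf4, Hspa1a, Hspa1b and Hspa8 are given in every group, the 3 members per direction with the smallest adjusted p in each comparison library by library, and up to 2 genes per direction from other lists. Motifs and the sum of Hspa1a and Hspa1b were chosen after the data were seen. Alternatives were DESeq2 size factors in edgeR, library totals alone, no filter on low counts, DESeq2 1.42.0, limma voom and limma-trend (limma 3.58.1) on log2(TPM + 1), a fit of the compared groups alone, and leaving out each library.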

Additional observations from a re-analysis of the deposited data

Results flagged for a closer look

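The interaction test (edgeR, adjusted over all genes tested) gave 20 differences between the tissues in the Rspo3 change of a member. Of these, 12 were in CD31+ and 8 in CD31- cells, and some genes are in both. Each value is the colonic minus the small intestinal log2 change. Among CD31+ cells the differences in AP-1 genes were -2.45 for Fos, -2.43 for Fosb, -1.92 for Jun, -1.51 for Junb and -1.81 for Atf3. Those of the zinc finger factors were -2.15 for Egr1 and -1.70 for Egr2. Ier2 differed by -1.17, Ier5 by -1.33, Zfp36 by -1.96, Btg2 by -1.23 and the cochaperone gene Dnajb1 by -1.44. In these 12 genes the colonic Rspo3+ libraries lay below the Rspo3- libraries, while the small intestinal change was a smaller fall (Egr2 and Btg2), a rise (Fosb and Jun) or did not pass.

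Among CD31- cells the differences were -1.36 for Fos, -1.31 for Fosb and -0.84 for Jun. Egr1 differed by -1.09, Egr2 by -1.45, Egr3 by -1.93, Nr4a1 by -1.25 and Socs3 by -1.46. All 8 of these genes rose with Rspo3 in the small intestine, and of them Egr1 and Nr4a1 also rose in the colon. Fos, Fosb, Jun, Egr1 and Egr2 differed between tissues in both CD31+ and CD31- cells. Cell makeup and handling differ between these groups too, and their part in the differences was not tested.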

How the results depend on the processing

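Of 7688 values of members under alternatives, 6942 kept their direction and side of the threshold, 398 kept direction but no longer passed and 136 newly passed in the same direction. The other 212 changed sign and passed in neither fit, so no called value reversed. Counts that moved by over 1.5 times were these. For Rspo3 in colonic CD31- cells, 14 became 8 by limma-trend on log2(TPM + 1) and 9 in a fit of the compared groups alone. For colon against small intestine, 8 became 5 in CD31+ Rspo3- cells in a fit of the compared groups alone, and 12 became 6 in CD31- Rspo3+ cells by limma-trend. For the tissue difference of the Rspo3 change in CD31- cells, 8 became 15 by limma-trend. In the same order, leaving out 1 library gave 9 to 17, 3 to 7, 6 to 11 and 3 to 8. The cause was not tested.

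Leaving out 1 library gave 9 to 13 (small intestine) and 21 to 23 (colon) for Rspo3 in CD31+ cells, and 21 to 24 in small intestinal CD31- cells. Calls kept under every alternative were 7 of 12, 21 of 24, 20 of 23 and 6 of 14 for Rspo3 in CD31+ small intestine, CD31+ colon, CD31- small intestine and CD31- colon. Library totals moved the median of all genes by -0.32 to 0.37 between comparisons and limma-trend on TPM by -0.32 to 0.30, and the others by -0.17 to 0.12. The median over the members for CD31+ against CD31- in small intestinal Rspo3+ cells changed from 0.04 to -0.08 by limma voom, and with library totals the heat shock median of the CD31 difference in the small intestine changed from -0.15 to 0.07. The split of all genes moved with library totals too, for example from 914 higher and 827 lower to 487 and 1834 for Rspo3 in colonic CD31- cells.

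No paired analysis was possible because the column names carry no replicate number; any effect that libraries of different groups share stays in the SE of each test. Spread between libraries limits what could pass for Hspa1a and Hspa1b, whose tissue differences in CD31- Rspo3- cells had an SE of 0.71 and 0.82.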

Other observations

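Genes known to respond to fluid shear in endothelium were counted in all comparisons of CD31+ with CD31- cells. Of 10 such genes, 9 were higher in CD31+ cells among small intestinal Rspo3+ cells and 7 among colonic Rspo3+ cells, where 16.9% and 14.9% of all genes tested were higher. Among Rspo3- cells 10 were higher in the small intestine and 9 in the colon, beside 20.1% and 16.1% of all genes, and none was lower in any of the 4 comparisons. The list was picked as endothelial genes, and CD31 is itself an endothelial surface protein. Selection by CD31 thus largely set these counts in advance, and they say nothing on flow. The member Klf2, which flow also induces, was at its highest mean in colonic CD31+ Rspo3- cells and 7.77-fold lower in small intestinal CD31- Rspo3- cells.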
